A study of Gallus gallus with 9 samples.

Results

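The injury response examined here is that of the retinal pigment epithelium (RPE) of the chick embryo to removal of the neural retina, with no growth factor added. It was read from 6 of the 9 libraries of the series and covers all 16535 of 16635 genes whose normalized counts summed to at least 20 over the 9 libraries. Intact RPE (3 libraries) came from unoperated White Leghorn embryos at embryonic day 4. The transiently reprogrammed RPE, or t-rRPE (3 libraries), came from embryos of that age 6 h after surgical removal of the retina and received no bead. The third group of the series, rRPE (3 libraries), was collected at 6 h after retinectomy with a bead soaked in FGF2 in the eye cup, and it enters here through the shared estimate of spread and where values are set side by side. All tissue was cut from cryosections by laser capture microdissection and sequenced as bulk RNA. The intact group had no sham operation and there was a single time point, so surgery as such and loss of the retina cannot be told apart. The sources do not say whether intact embryos were kept for the same 6 h. Further development over that time and the injury cannot be told apart either. Retina adjoined the RPE in intact eyes and had been removed from injured ones. For genes also expressed in retina, loss of retinal RNA from the capture and a fall within the RPE cannot be told apart. The sources describe 3 embryos per condition and do not say whether a library pooled sections of both eyes.

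The RPE is the pigmented monolayer behind the neural retina. It stores melanin, handles retinoids for vision and supports the retina through its secreted factors and its basement membrane. In the embryonic chick it keeps for a short period the ability to give rise to neural retina, which after injury a source of FGF can set off, while without FGF the injured layer begins to change and then stops. An injured epithelium is commonly described through immediate early transcription factors, cytokine signals, cell cycle entry or arrest, remodelling of matrix and adhesion, and loss of differentiated character. The classes below begin with lens and neighbouring tissues and go on to the cell cycle, injury signals, tissue identity, protein folding, matrix and channels. Many genes stand in several of these classes, so the counts of different classes are not independent.

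The whole reads recovered from the values came to between 36418116 and 45563924 for intact RPE and between 26167206 and 37645865 for t-rRPE. Across genes on the log2 scale, intact RPE libraries correlated with each other at 0.878 to 0.910, t-rRPE libraries at 0.856 to 0.865, and libraries of the 2 groups at 0.851 to 0.868. The embryos' sex is not given in the labels, but the libraries differed in a sex-linked transcript. *HINTW*, a transcript of the female-specific W chromosome, measured 128872, 102583 and 106839.5 normalized counts in RPE and 147356 in t-rRPE replicate 1, and was at 0 in t-rRPE replicates 2 and 3 and in all rRPE libraries. Genes of the Z chromosome, of which males carry an additional copy, followed the same division. The median log2 difference of 360 Z-linked genes from the RPE mean was 0.05 in t-rRPE replicate 1 and 0.61 and 0.66 in t-rRPE replicates 2 and 3, while for 7574 genes of other chromosomes it lay between -0.02 and 0.03. Of the 84 genes called below that could be placed on a chromosome, 3 were Z-linked (*TRPM3*, *DMRT3* and *ARRDC3*, the last named after its values were seen). Only t-rRPE replicate 1 held *HINTW* as the RPE libraries did, so sex and injury cannot be told apart for the other 2.

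With the limits of 0.05 on the adjusted p and 1 on the size of the log2 fold change, limma called 59 genes (0.357% of those tested) higher and 52 genes (0.314%) lower in t-rRPE than in RPE, together 0.671%. Fold changes are differences of mean log2(normalized count + 1) and carry their standard error (SE), and p values are adjusted over all genes tested. The median over all genes was 0 with quartiles at -0.47 and 0.55, and those are quartiles of single genes, which do not say how far the median of a class varies. Of the 59 up-regulated genes 29 had risen by more than 4 on the log2 scale, and of the 52 down-regulated genes 15 had fallen as far, while 16 and 25 had changed by between 1 and 2. Many of the steep changes were on-off patterns, since 16 of the up-regulated genes held at most 3 reads in every RPE library and 10 of the down-regulated genes at most 3 reads in every t-rRPE library. The down-regulated genes were the more abundant, with a median mean of 1574 normalized counts against 838 for the up-regulated ones. Non-overlap of the groups, which held for all of the called genes, held for 15.1% of all genes tested (7.32% higher and 7.83% lower), and 49.8% of all genes had a positive and 48.5% a negative fold change. Uncalled genes named below were in part chosen for the smallest p of their class. Non-overlap is likely under that choice and adds no support to them. An unadjusted p of at most 0.05, used beside the counts below, was reached by 987 genes (5.97%) in the upward and 1066 (6.45%) in the downward direction, together 12.4%.

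These calls sat close to the threshold. The lowest adjusted p was 0.00203 among rises and 0.00896 among falls, and each of the 111 genes lost its call in at least 1 of the 9 fits that left out a library. Only 1 rise and 0 falls kept the call in 6 or more of those 9 fits. No gene was called without rRPE replicate 1 or without t-rRPE replicate 3, and 2 rises and 0 falls were called without RPE replicate 2 or without RPE replicate 3. Fitting only the 6 libraries compared gave no call either (lowest adjusted p = 0.0563). In that fit 813 genes higher and 876 lower had an unadjusted p of at most 0.05, all 111 genes among them. The 111 were chosen by p on these same libraries, so this adds no support to them. On the recovered reads edgeR called 23 genes higher (0.163%) and 18 lower (0.128%), all among the 111, whereas unshrunken DESeq2 called 289 higher (2.03%) and 218 lower (1.53%), including 58 and 52 of them. With presence of *HINTW* as a term, a fit chosen after seeing the data in which t-rRPE replicate 1 carries the contrast, 151 genes were called higher and 135 lower, of which 21 and 21 were among the 111.

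**Figure D1:**
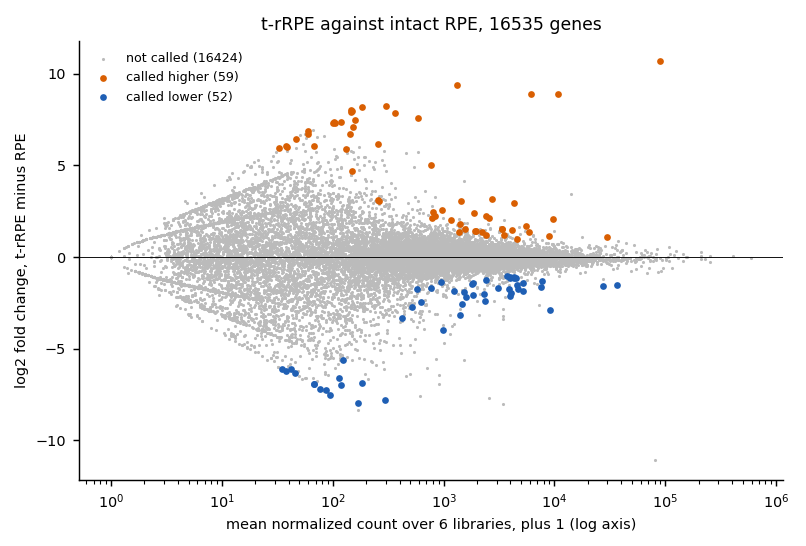
Log2 fold change (t-rRPE minus RPE) against the mean normalized count over the 6 libraries on a log axis, with 1 point for each of 16535 genes. The 59 genes called higher (orange) have a median mean level of 838 normalized counts and the 52 called lower (blue) one of 1574.

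The steepest rise was that of lens proteins. The crystallins are the soluble proteins that fill the lens fibre cells, and in birds delta-crystallin, encoded by *ASL1* and *ASL2*, is the main embryonic one. Of 18 lens structural genes tested, 7 were up-regulated and 0 down-regulated, and their median log2 fold change was 4.48 (4.01 with genes at the floor of 3 reads set to their lower bound, and 0.53 with the normal prior of DESeq2, which shrinks fold changes). By edgeR 5 of the 18 were called higher and 0 lower, and by DESeq2 7 higher and 0 lower. *ASL1* measured 13.5, 129.8 and 232 normalized counts in RPE and 39430.0, 332972 and 160226 in t-rRPE (log2 fold change 10.72 ± 0.95, adjusted p = 0.00203). The groups were far apart, and t-rRPE replicate 1 held the least of the 3 injured libraries. *CRYAA*, alpha-A-crystallin, went from 9.61, 64.9 and 8.45 to 2647, 21424 and 12730.1 (log2 fold change 8.90 ± 0.84, adjusted p = 0.00203), with the same ranking of libraries. *ASL2* measured 0, 110.3 and 281 in RPE and 4365, 40652 and 19032 in t-rRPE, but it is a near-identical copy of *ASL1* and how the reads were divided between them is uncertain.

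The remaining called members behaved alike. *CRYBA2*, a beta-crystallin, measured 0, 0 and 24.6 in RPE and 653, 4850.1 and 2428 in t-rRPE (log2 fold change 9.39 ± 1.23, adjusted p = 0.0112). *BFSP1*, the filensin of the beaded filaments of lens fibres, was at 0 in every RPE library and reached 35.8, 1041 and 749 in t-rRPE libraries, at least 211-fold higher. *CRYBA4* was also at 0 in RPE and measured 123, 62.5 and 36.5 in t-rRPE libraries, at least 25.6-fold higher. *CRYAB*, alpha-B-crystallin, which many stressed tissues also make, rose from 398, 364 and 709 to 1695, 7612 and 5512 (log2 fold change 3.14 ± 0.51, adjusted p = 0.0263). Members that did not pass included *MIP*, the aquaporin of lens fibres (20.2, 4.69 and 5.38 in RPE and 79.2, 119 and 91.2 in t-rRPE, log2 fold change 3.39 ± 1.15, adjusted p = 0.267), and *BFSP2*, whose groups overlapped (825, 341 and 75.3 in RPE and 183, 966 and 847 in t-rRPE).

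Summed over the class, lens structural transcripts came to between 1057 and 1859 normalized counts in RPE and to 49631, 412125 and 203509 in t-rRPE replicates 1, 2 and 3. The rRPE libraries summed to between 23113 and 52459. The injured libraries thus differed among themselves, and all of them lay far above RPE. Of 11 regulators of lens fate, 0 were called by limma, 0 by edgeR and 1 higher and 1 lower by DESeq2, and 2 had an unadjusted p of at most 0.05 in the downward and 1 in the upward direction. The upward one was *MAFA*, the L-Maf activator of chick crystallin genes, at 0 in RPE and at 5.43, 154 and 175 in t-rRPE (log2 fold change 5.81 ± 1.47, adjusted p = 0.132). The lens lies beside the tissue that retinectomy opens, and the part of lens cells or lens RNA in these values was not tested.

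Markers of tissues that border the RPE had negative medians. Of 28 endothelial genes 1 was called lower by limma, 1 by edgeR and 7 by DESeq2, and 0 were called higher. An unadjusted p of at most 0.05 was reached by 10 of them, all lower, with a class median of -1.64 (-0.60 with the prior). Of 33 mesenchyme genes 1 was called lower by limma, 0 by edgeR and 5 by DESeq2, which also called 1 higher. Of the 33, 12 had an unadjusted p of at most 0.05 in the downward and 1 in the upward direction, and the median was -1.66. Without t-rRPE replicate 1 that median was -1.03, with unshrunken DESeq2 -1.03, with an offset of 5 -1.08, with the prior -0.18 and with *HINTW* as a term -2.91. *CDH5*, the cadherin of endothelial junctions, fell from 1858, 2631 and 3366 to 433, 502 and 847 (log2 fold change -2.16 ± 0.36, adjusted p = 0.0271). *PRRX2*, a homeobox factor of craniofacial mesenchyme, fell from 638, 796 and 856 to 62.9, 141 and 45.6 (log2 fold change -3.34 ± 0.58, adjusted p = 0.0343). In bulk tissue, fewer cells of a type and less RNA per cell cannot be told apart.

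Further members of these lists had lower levels without passing the test. *ETS1* measured 1185, 1584 and 2236 in RPE and 411, 609 and 502 in t-rRPE (log2 fold change -1.68 ± 0.36, adjusted p = 0.0664). *CD34* measured 505, 1475 and 1614 in RPE and 196, 127 and 222 in t-rRPE (log2 fold change -2.58 ± 0.60, adjusted p = 0.0959). *DCN*, the matrix proteoglycan decorin, measured 719.8, 1991 and 2698 in RPE and 86.8, 49.5 and 392 in t-rRPE (log2 fold change -3.71 ± 0.75, adjusted p = 0.054). In each of them the groups did not overlap. *COL1A2* of the mesenchyme list lay in the other direction with overlapping groups (6386, 5699 and 8328 in RPE and 9772, 7346 and 8424 in t-rRPE, log2 fold change 0.33 ± 0.17, adjusted p = 0.455). Of the 33 mesenchyme genes 7 had a positive and 26 a negative fold change, and of the 28 endothelial genes 3 and 25. Summed levels of the 28 endothelial genes were 13261, 25248 and 25675 in RPE replicates 1, 2 and 3 and ranged from 7841 to 10742 in t-rRPE. The intact libraries thus differed among themselves, and RPE replicate 1 lay nearer to t-rRPE than to the other intact ones. Sums of the 33 mesenchyme genes ranged from 17157 to 22999.9 in RPE and from 13609 to 16923 in t-rRPE. All 3 RPE libraries were at 0 in 0 of the 28 and 2 of the 33 genes (*PDGFRB* and *DPT*), and all 3 t-rRPE libraries in 0 and 1 (*SIX2*). *CDH5* and *PECAM1* were above 0 in all 6 libraries, as were *COL1A1*, *COL3A1* and *PRRX2*. The part of these tissues in the genes called lower was not tested.

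Blood, nerve and immune marker lists held no called member. Erythroid transcripts, mostly globins, summed to between 281658 and 432581 in RPE and to 149913, 393569.5 and 184878 in t-rRPE replicates 1, 2 and 3, so the groups overlapped through replicate 2 (median of 11 genes -0.77). Limma and edgeR called 0 of these 11 genes, 0 of 15 retinal neuron genes and 0 of 18 leukocyte genes. DESeq2 called 0 erythroid genes, 1 retinal neuron gene, which was lower, and 0 leukocyte genes. An unadjusted p of at most 0.05 was reached by 0 higher and 3 lower of the erythroid, 0 higher and 2 lower of the neuron and 1 higher and 2 lower of the leukocyte genes. At 0 in all 3 RPE libraries were 2 of the neuron list (*STMN2* and *ONECUT1*) and 3 of the leukocyte list (*CYBB*, *C1QC* and *CSF3R*), and at 0 in all 3 t-rRPE libraries 3 of the neuron list (*NEFM*, *ISL1* and *GAP43*) and 5 of the leukocyte list (*CYBB*, *C1QA*, *C1QB*, *CSF3R* and *TIMD4*). Single neuronal genes of low level separated the groups, such as *NEFM*, a neurofilament (25.9, 224 and 141 in RPE and 0, 0 and 0 in t-rRPE, log2 fold change -6.57 ± 1.75, adjusted p = 0.159), and *ATOH7*, the ganglion cell determinant (42.3, 114 and 55.3 in RPE and 0, 0 and 2.61 in t-rRPE, log2 fold change -5.42 ± 1.66, adjusted p = 0.218). *TUBB3* lay in the other direction with overlapping groups (9786, 8261 and 7325 in RPE and 9231, 17152 and 9663 in t-rRPE, log2 fold change 0.46 ± 0.22, adjusted p = 0.436). Of the 15 neuron genes 5 had a positive and 10 a negative fold change. Their sums overlapped, from 12501 to 19052 in RPE and from 14960 to 21667 in t-rRPE. The part of adjoining retina in these values was not tested.

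**Figure D2:**
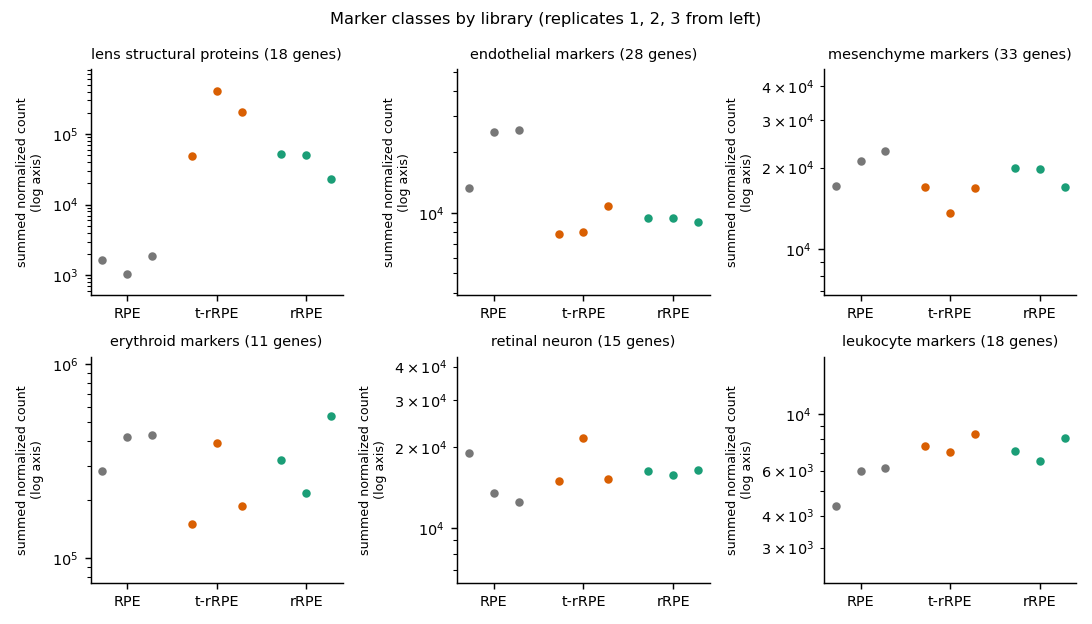
Summed normalized counts of 6 marker classes in each of the 9 libraries, on a log axis, coloured by group (RPE grey, t-rRPE orange, rRPE green). Lens sums are higher in all 6 injured libraries than in RPE, endothelial sums are lower in all 6, and erythroid sums overlap.

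Genes of DNA replication held 6 falls and no rise after retinectomy. The MCM proteins form the helicase that origins load before S phase, and the licensing class holds them with the origin recognition complex and their loaders. Of its 23 members 4 were down-regulated and 0 up-regulated, 17 had an unadjusted p of at most 0.05 in the downward direction, and the class median was -1.12 (-0.75 with the prior). By edgeR 1 of the 23 was called lower and 0 higher, and by DESeq2 7 lower and 0 higher. *MCM2* measured 3765, 5360.0 and 5072 in RPE and 1198, 1644 and 1542 in t-rRPE (log2 fold change -1.69 ± 0.26, adjusted p = 0.0228). *MCM5* fell further, from 6483, 6202 and 6172 to 828, 2762 and 1276 (log2 fold change -2.14 ± 0.41, adjusted p = 0.0472), and replicate 2 kept the most of it. *MCM6* (4772, 4425 and 5704 in RPE and 2751, 2446 and 2164 in t-rRPE, log2 fold change -1.02 ± 0.19, adjusted p = 0.0449) and *ORC6* (2643, 2966 and 2306 in RPE and 1420.4, 776 and 868 in t-rRPE, log2 fold change -1.41 ± 0.26, adjusted p = 0.0396) were the other called members. *MCM4* (log2 fold change -1.53 ± 0.35, adjusted p = 0.089), *GINS1* (log2 fold change -2.10 ± 0.48, adjusted p = 0.0911) and *DBF4* (log2 fold change -1.36 ± 0.33, adjusted p = 0.113) did not pass, and their groups did not overlap.

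The class of fork proteins and nucleotide supply gave 2 called lower of 30, with 17 at an unadjusted p of at most 0.05, all lower, and a median of -0.69. By edgeR 0 of the 30 were called, and by DESeq2 4 lower and 0 higher. *PCNA*, the sliding clamp of the replication fork, fell from 7702, 7977 and 6687 to 2267, 3276 and 2961 (log2 fold change -1.41 ± 0.25, adjusted p = 0.0355). *RRM2*, the regulated subunit of ribonucleotide reductase, fell from 7959, 8227 and 7701 to 1339, 4026 and 2041 (log2 fold change -1.84 ± 0.32, adjusted p = 0.0332). *FEN1* (log2 fold change -1.11 ± 0.23, adjusted p = 0.0554), *SLBP* (log2 fold change -3.11 ± 0.71, adjusted p = 0.0953) and *TK1* (log2 fold change -2.41 ± 0.63, adjusted p = 0.151) were lower without passing. Replicate 2 again stood nearest to the intact tissue: the class median of its log2 differences from the RPE mean was -0.13, against -0.98 and -1.08 in replicates 1 and 3.

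Upstream of replication, the G1 and S class of 24 genes held 2 called lower and 0 called higher, with 1 higher and 8 lower at an unadjusted p of at most 0.05 and a median of -0.55. By edgeR 2 of the 24 were called lower and 0 higher, and by DESeq2 3 lower and 0 higher. *E2F1*, the transcription factor that drives S-phase genes, fell from 1286, 660.1 and 765 to 154, 87.7 and 159 (log2 fold change -2.74 ± 0.48, adjusted p = 0.0343). *CDK6*, the kinase partner of D-type cyclins, fell from 10432, 12629 and 9911 to 3592, 3949 and 5926 (log2 fold change -1.32 ± 0.20, adjusted p = 0.0207). *CCND2* (7958, 8857 and 8206 in RPE and 6162, 7473 and 6619.9 in t-rRPE, log2 fold change -0.31 ± 0.20, adjusted p = 0.589) was lower without passing. *E2F6*, a repressor of the E2F family, lay in the other direction (1578, 1545 and 1819 in RPE and 2444, 2390.0 and 2579 in t-rRPE, log2 fold change 0.59 ± 0.20, adjusted p = 0.262) with groups that did not overlap. *TFDP1*, the partner of E2F factors, gave log2 fold change -0.82 ± 0.23, adjusted p = 0.184.

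Mitotic genes differed among the injured libraries more than between the groups. Of 31 genes of G2 and mitosis, limma called 0, edgeR 0 and DESeq2 0, and 4 had an unadjusted p of at most 0.05, all lower. *CDK1*, the mitotic kinase, measured 16954, 13056 and 14878 in RPE and 8488, 17803 and 7569 in t-rRPE, and *TOP2A*, the topoisomerase of condensing chromosomes, 16245, 18289.6 and 20071 in RPE and 9990.4, 21887 and 10771 in t-rRPE. In both, replicate 2 lay above the RPE range and replicates 1 and 3 lay below it. The class sum was 220842 in t-rRPE replicate 2 against 100820.1 and 99701 in replicates 1 and 3, and between 173118 and 174531 in RPE.

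Genes that restrain proliferation included 3 rises. Of 21 growth arrest genes 3 were up-regulated and 0 down-regulated, 11 had an unadjusted p of at most 0.05, all upward, and the median was 0.71. By edgeR 2 of the 21 were called higher and 0 lower, and by DESeq2 6 higher and 0 lower. *BTG1*, an anti-proliferative co-regulator, rose from 23339, 16757 and 17954 to 46954, 34043 and 40916 (log2 fold change 1.07 ± 0.17, adjusted p = 0.0263). *BTG2*, its p53-inducible relative, rose from 2009, 1732 and 1387 to 6142, 4682 and 4246 (log2 fold change 1.55 ± 0.24, adjusted p = 0.0206). *CDC14A*, a phosphatase whose yeast counterpart opposes cyclin-dependent kinases, rose from 2202, 1919 and 2275 to 4919.8, 4593 and 5075 (log2 fold change 1.19 ± 0.18, adjusted p = 0.0207). The 3 t-rRPE libraries lay close together in *CDC14A*.

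Further members had positive fold changes without passing. *CCNG2*, an atypical cyclin of arrested cells, measured 1715, 2475 and 2960.0 in RPE and 5931, 5051 and 4602 in t-rRPE (log2 fold change 1.15 ± 0.23, adjusted p = 0.054). *GADD45G*, a stress-induced growth inhibitor, measured 678, 502 and 417 in RPE and 948, 1462 and 2071 in t-rRPE (log2 fold change 1.44 ± 0.42, adjusted p = 0.201). *CDKN1B*, the kinase inhibitor p27, measured 4480.1, 4296 and 4525 in RPE and 7915, 5552 and 6884 in t-rRPE (log2 fold change 0.60 ± 0.16, adjusted p = 0.168). The groups of these genes did not overlap.

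**Figure D3:**
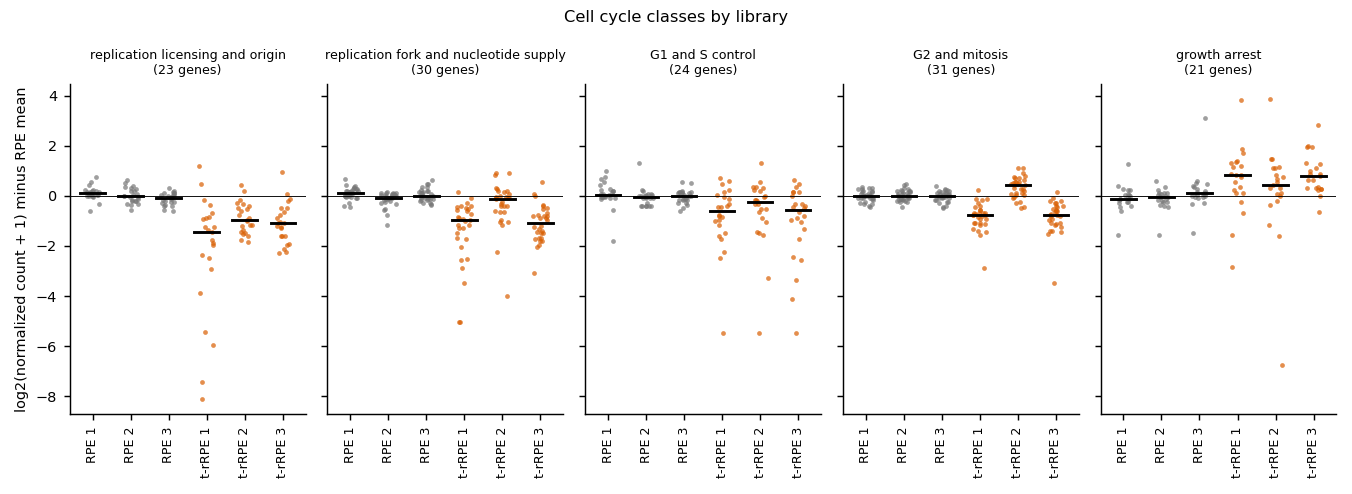
Log2 difference of each class member from its mean in RPE, by library, for 5 cell cycle classes (licensing, fork and nucleotide supply, G1 and S, G2 and mitosis, growth arrest), with black bars at the class median. Among the t-rRPE libraries the licensing median lies below 0 in all 3, the G2 and mitosis median above 0 in replicate 2 only, and the growth arrest median above 0 in all 3.

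The immediate early class had no called member. Limma and edgeR called 0 of 16 genes, DESeq2 called 3 higher and 0 lower, and 4 higher and 1 lower had an unadjusted p of at most 0.05 (median 0.53). *JUN*, a subunit of the AP-1 transcription factor, measured 619, 1194 and 883 in RPE and 1565, 3303 and 2114 in t-rRPE (log2 fold change 1.35 ± 0.32, adjusted p = 0.105). *ATF3*, a stress-induced partner of JUN, measured 35.6, 0 and 99.1 in RPE and 354, 535 and 703 in t-rRPE (log2 fold change 5.05 ± 1.32, adjusted p = 0.152). *EGR1*, an immediate early zinc finger factor, measured 0, 0 and 207 in RPE and 193, 390.1 and 222 in t-rRPE (log2 fold change 5.44 ± 1.68, adjusted p = 0.222), and its RPE replicate 3 overlapped the injured group. The ratio of its group means was 3.88, and its adjusted p was 0.704 in edgeR and 0.777 in DESeq2.

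The pathway of IL6-type cytokines gave the same outcome, with 0 of 25 genes called by limma, 0 by edgeR and 3 higher and 0 lower by DESeq2, against 5 higher and 1 lower at an unadjusted p of at most 0.05. *STAT3*, its transcription factor, measured 2928, 3008 and 2510.5 in RPE and 4299, 7513 and 6578 in t-rRPE (log2 fold change 1.09 ± 0.24, adjusted p = 0.0779). *SOCS3*, the feedback inhibitor that STAT3 induces, measured 0, 7.82 and 134 in RPE and 398, 226 and 663 in t-rRPE (log2 fold change 5.21 ± 1.38, adjusted p = 0.158). *CEBPB* measured 15.4, 28.2 and 6.92 in RPE and 83.6, 263 and 108 in t-rRPE (log2 fold change 3.11 ± 0.90, adjusted p = 0.195). All 3 were higher after injury with groups that did not overlap, as was so in either direction for 15.1% of all genes tested. They were named for the smallest p among the uncalled genes of the class, which favours such a separation.

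Chemokine signals did contain calls. Of 26 cytokine, chemokine and complement genes 3 were up-regulated and 0 down-regulated, and 4 higher and 2 lower had an unadjusted p of at most 0.05. By edgeR 2 of the 26 were called higher and 0 lower, and by DESeq2 4 higher and 0 lower. *CXCL14*, a chemokine of epithelia, was at 0 in every RPE library and measured 129, 68.1 and 511 in t-rRPE libraries, at least 81.9-fold higher. *CCL4*, an inflammatory chemokine, was likewise at 0 in RPE and measured 361, 74.7 and 171 in t-rRPE libraries, at least 70.2-fold higher. Another locus with that symbol measured 0, 32.1 and 44.6 in RPE, was at 0 after injury and was not called. How reads were divided between such related chemokine genes is uncertain. *CXCR4*, the receptor of CXCL12, rose from 149, 228 and 311 to 754, 2356 and 958 (log2 fold change 2.44 ± 0.43, adjusted p = 0.0343). Its ligand gene *CXCL12* lay in the other direction and did not pass (865, 544 and 590.2 in RPE and 59.7, 374 and 111 in t-rRPE, log2 fold change -2.26 ± 0.63, adjusted p = 0.181). The leukocyte receptor *CSF1R* overlapped between the groups (772, 1141 and 849.9 in RPE and 1047, 1410.1 and 1911 in t-rRPE).

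Among the Notch, FGF, MAPK, WNT and BMP or TGF-beta classes, limma called the most in Notch, while DESeq2 called 3 genes there, 2 higher and 1 lower for WNT and 1 higher and 3 lower for BMP and TGF-beta. Notch receptors, cleaved once a ligand binds, switch on HES and HEY repressors, and Fringe enzymes adjust which ligand a receptor answers. Of 22 Notch genes 3 were down-regulated and 0 up-regulated, and 7 had an unadjusted p of at most 0.05, all lower (median -0.40). By edgeR 2 of the 22 were called lower and 0 higher. *HEY1* fell from 2053, 2454 and 2796 to 651, 764 and 528 (log2 fold change -1.91 ± 0.26, adjusted p = 0.0122). *LFNG*, the lunatic Fringe enzyme, fell from 8312, 6046 and 6119 to 2512, 2484 and 2075 (log2 fold change -1.52 ± 0.21, adjusted p = 0.0122). *HES4* fell from 3412, 1780.2 and 2344 to 99.8, 391 and 485 (log2 fold change -3.18 ± 0.55, adjusted p = 0.0343). *HES5* (214, 242 and 356 in RPE and 0, 25.2 and 37.8 in t-rRPE) and *HEYL* (1229, 877 and 403 in RPE and 399, 215 and 288 in t-rRPE) were lower in all 3 injured libraries without passing. *HEY1* and *HEYL* are also active in endothelium, whose marker sums were lower as given above, and the part of vessels in these values was not tested. *HES5* is also listed as a retinal progenitor gene, and the part of adjoining retina in its values was not tested.

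The FGF class held a single limma call among 19 genes, while edgeR called 0 and DESeq2 called 1 higher and 1 lower. An unadjusted p of at most 0.05 was reached by 2 higher and 2 lower. *FGF8*, a ligand that can start neural retina formation, fell from 212, 119.7 and 70.7 to 0 in every t-rRPE library, at least 34.3-fold lower. It was also at 0 in every rRPE library. Retina had been removed from all injured eyes, and the part of adjoining retina in this fall was not tested. *FGFR3*, a receptor, measured 12452, 17719 and 16780.2 in RPE and 10226, 9462 and 7643 in t-rRPE (log2 fold change -0.77 ± 0.21, adjusted p = 0.163). Another receptor gene, *FGFR4*, lay in the other direction (1189, 1395 and 471 in RPE and 2089, 2033 and 2578 in t-rRPE, log2 fold change 1.27 ± 0.38, adjusted p = 0.206), and its groups did not overlap. Limma called 0 of 23 MAPK feedback genes, edgeR 0 and DESeq2 2 higher and 0 lower, and 3 higher and 1 lower had an unadjusted p of at most 0.05. *ERRFI1*, an EGF receptor inhibitor, measured 1181, 1209 and 1400.1 in RPE and 2049.7, 2549.6 and 3012 in t-rRPE (log2 fold change 0.99 ± 0.28, adjusted p = 0.178), with no overlap, and *DUSP5*, an ERK phosphatase, 5205, 3579.9 and 4453 in RPE and 7860.4, 5608 and 6900.1 in t-rRPE (log2 fold change 0.62 ± 0.25, adjusted p = 0.356).

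WNT and BMP or TGF-beta genes held no limma call, with 0 of 44 and 0 of 46. Among WNT genes edgeR called 0, DESeq2 called 2 higher and 1 lower, and 4 higher and 4 lower had an unadjusted p of at most 0.05. Among BMP and TGF-beta genes edgeR called 0, DESeq2 called 1 higher and 3 lower, and 2 higher and 8 lower had an unadjusted p of at most 0.05. *AXIN2*, a target and inhibitor of WNT signalling, measured 99.9, 156 and 205 in RPE and 559.9, 470.4 and 520.0 in t-rRPE (log2 fold change 1.80 ± 0.50, adjusted p = 0.178). *TGFB2* measured 342, 271 and 142 in RPE and 801, 1475 and 1263 in t-rRPE (log2 fold change 2.27 ± 0.47, adjusted p = 0.0614), whereas *TGFB3* measured 1908, 2045 and 1603 in RPE and 946, 949 and 768 in t-rRPE (log2 fold change -1.06 ± 0.24, adjusted p = 0.0941). The groups of these 3 genes did not overlap, and the ligands *TGFB2* and *TGFB3* lay in opposite directions. *ID1*, a BMP target, measured 1450.1, 2795 and 2985 in RPE and 956, 798 and 1191 in t-rRPE (log2 fold change -1.24 ± 0.34, adjusted p = 0.168).

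Defining genes of the RPE were abundant in all 6 libraries. *TYR*, the tyrosinase of melanin synthesis, measured 63704, 87215 and 81117 in RPE and 70147, 62862 and 70660.0 in t-rRPE, and *PMEL*, the melanosome fibril protein, 100059, 108892 and 101000.2 in RPE and 114544, 97689 and 85412 in t-rRPE. Of 22 RPE and pigment genes limma called 0, edgeR 0 and DESeq2 0 higher and 1 lower, and 5 higher and 2 lower had an unadjusted p of at most 0.05 (median 0.06). *MITF*, the transcription factor that specifies pigment cells, measured 3911, 5933 and 5855 in RPE and 1548, 2886 and 2095 in t-rRPE (log2 fold change -1.29 ± 0.28, adjusted p = 0.0742). Its groups did not overlap, while those of *TYR* and *PMEL*, which it is known to activate, did. *TYRP1*, a Z-linked melanin enzyme, measured 30458, 31031 and 33618 in RPE and 54298, 39826 and 75902 in t-rRPE (log2 fold change 0.79 ± 0.23, adjusted p = 0.204).

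Retinal progenitor genes also gave 0 calls of 24 by limma and 0 by edgeR, with 0 higher and 1 lower by DESeq2 and 0 higher and 4 lower at an unadjusted p of at most 0.05. *SIX3*, an eye field factor, measured 3839, 4541 and 4789.6 in RPE and 1482, 1857 and 2517 in t-rRPE (log2 fold change -1.20 ± 0.26, adjusted p = 0.0765). *PAX6* overlapped between the groups (5537, 3538 and 2852 in RPE and 2319.9, 5988 and 3619 in t-rRPE). Retinoid genes held 1 call of 23, with 4 higher and 5 lower at an unadjusted p of at most 0.05. By edgeR 1 of the 23 was called higher and 0 lower, and by DESeq2 2 higher and 1 lower. *STRA6*, the membrane receptor that takes up retinol from its blood carrier, rose from 4403, 3483 and 3081 to 19234, 12667 and 14802 (log2 fold change 2.08 ± 0.20, adjusted p = 0.00203), the smallest adjusted p of the comparison together with *ASL1* and *CRYAA*. *ALDH1A1*, a retinaldehyde dehydrogenase, measured 962, 1543 and 1101 in RPE and 2.17, 0 and 71.7 in t-rRPE (log2 fold change -7.59 ± 1.96, adjusted p = 0.146), a large difference with a large error. *RLBP1*, the retinaldehyde carrier of the RPE, did not separate (48816, 54698 and 56791 in RPE and 96168, 37416 and 67471 in t-rRPE).

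Among 26 heat shock and folding genes limma and edgeR each called 1 lower and 0 higher, and DESeq2 called 1 higher and 1 lower. An unadjusted p of at most 0.05 was reached by 0 higher and 5 lower. *HSPA5*, the BiP chaperone of the endoplasmic reticulum, fell from 36628, 43246 and 44266 to 10141, 16684 and 14958 (log2 fold change -1.60 ± 0.18, adjusted p = 0.00896), the smallest adjusted p among the down-regulated genes. *HSP90AA1* (97607, 118847 and 114225 in RPE and 56425, 72381 and 60213 in t-rRPE, log2 fold change -0.81 ± 0.17, adjusted p = 0.0614) and *HSPA8* (125211, 146453 and 142741 in RPE and 103257, 82681 and 92999.9 in t-rRPE, log2 fold change -0.57 ± 0.12, adjusted p = 0.0614) did not pass, but all 3 injured libraries lay below all 3 intact ones. Of 19 genes of the unfolded protein response limma and edgeR called 0, DESeq2 called 0 higher and 1 lower, and 1 higher and 6 lower had an unadjusted p of at most 0.05 (median -0.45). *PDIA4*, a disulphide isomerase, measured 14342, 15317 and 17084 in RPE and 8912, 9989 and 10761 in t-rRPE (log2 fold change -0.66 ± 0.14, adjusted p = 0.0657), and *XBP1*, the transcription factor of this response, 7880.0, 9154 and 8434 in RPE and 5239.9, 6259 and 4395 in t-rRPE (log2 fold change -0.69 ± 0.22, adjusted p = 0.232).

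Of 24 cholesterol synthesis genes 1 higher and 3 lower had an unadjusted p of at most 0.05 and 1 was called by limma, *FDFT1*, squalene synthase, which fell from 2730.1, 2613 and 2439.8 to 1246, 704 and 972 (log2 fold change -1.45 ± 0.28, adjusted p = 0.0492). By edgeR 0 of the 24 were called, and by DESeq2 0 higher and 1 lower. Hypoxia and glycolysis genes gave 0 calls of 25 by limma and 0 by edgeR, 0 by DESeq2 and 1 higher and 0 lower at an unadjusted p of at most 0.05. *SLC2A1*, the glucose transporter of the RPE, measured 50091, 52991 and 53047 in RPE and 40189.6, 41704 and 54426 in t-rRPE, with overlapping groups. *GAPDH* overlapped as well (164865, 121201 and 120338 in RPE and 155518, 193463 and 118919 in t-rRPE).

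Matrix genes held calls in both directions. Of 26 matrix glycoproteins 1 was called lower and 0 higher, with 7 lower and 4 higher at an unadjusted p of at most 0.05 (median -0.84). By edgeR 0 of the 26 were called, and by DESeq2 2 higher and 4 lower. *VTN*, the adhesive glycoprotein vitronectin, measured 168, 101 and 187 in RPE and 0 in every t-rRPE library, at least 38.9-fold lower. *FN1*, fibronectin, measured 6848, 6992 and 7305 in RPE and 3930.2, 2102 and 2224 in t-rRPE (log2 fold change -1.42 ± 0.39, adjusted p = 0.168), and *TNC*, tenascin C of healing wounds, measured 1603, 1846 and 1571 in RPE and 3071, 6214 and 4773 in t-rRPE (log2 fold change 1.43 ± 0.34, adjusted p = 0.104). These last groups did not overlap and lay in opposite directions. *NOV*, a matricellular CCN protein, measured 3111, 1859.9 and 1717 in RPE and 3638, 5737 and 6523 in t-rRPE (log2 fold change 1.26 ± 0.27, adjusted p = 0.0657).

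Of 21 collagens other than those of basement membrane 2 were up-regulated, and 4 higher and 5 lower had an unadjusted p of at most 0.05. By edgeR 0 of the 21 were called, and by DESeq2 2 higher and 1 lower. *COL9A2*, of the type IX collagen found in vitreous and cartilage, rose from 3535, 2579.5 and 3084 to 6697, 5209 and 6514 (log2 fold change 1.00 ± 0.17, adjusted p = 0.033). Its partner chain *COL9A1* passed on p but not on fold (33114, 22722 and 23337 in RPE and 50651, 45848 and 47440.3 in t-rRPE, log2 fold change 0.88 ± 0.17, adjusted p = 0.0494). *COL6A2* rose from 8.65, 0 and 15.4 to 181, 963 and 352 (log2 fold change 6.19 ± 1.14, adjusted p = 0.0396), whereas *COL6A3*, another chain of type VI collagen, was lower without passing (269, 266 and 464 in RPE and 0, 0 and 0 in t-rRPE, log2 fold change -8.33 ± 1.84, adjusted p = 0.0805). The mesenchymal *COL1A1* measured 389, 1172 and 662 in RPE and 188, 66.3 and 99.1 in t-rRPE (log2 fold change -2.63 ± 0.64, adjusted p = 0.113). Its partner chain *COL1A2*, given above, lay in the other direction with overlapping groups.

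*TIMP3*, a metalloproteinase inhibitor that mammalian RPE lays down in its basement membrane, fell from 2976, 3613 and 4390.0 to 1102, 481 and 1337 (log2 fold change -2.02 ± 0.36, adjusted p = 0.0355). It was the only limma call among 36 proteases and inhibitors, of which edgeR called 0 and DESeq2 1 higher and 2 lower. Of the 36, 3 higher and 4 lower had an unadjusted p of at most 0.05. *TIMP2*, a related inhibitor, was higher without passing (8379, 6479 and 6717 in RPE and 12938, 10103 and 12787 in t-rRPE, log2 fold change 0.73 ± 0.16, adjusted p = 0.0772). In the basement membrane class, limma called 0 of 20 genes, edgeR 0 and DESeq2 1 higher and 1 lower, and 2 higher and 2 lower had an unadjusted p of at most 0.05. *COL4A1*, the main chain of basement membrane collagen, measured 3743, 5489.9 and 6257 in RPE and 1321, 2063 and 2785 in t-rRPE (log2 fold change -1.36 ± 0.28, adjusted p = 0.0634), and *LAMB1*, a laminin chain, overlapped (13495, 19110.1 and 19335 in RPE and 24544, 11552 and 16918 in t-rRPE). *FREM1* of the same class was higher without passing (651, 368 and 194 in RPE and 1308, 1703 and 1732 in t-rRPE, log2 fold change 2.12 ± 0.47, adjusted p = 0.0851).

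Of 19 genes of epithelial-mesenchymal transition (EMT) 1 was called by limma, 1 by edgeR and 3 by DESeq2, all lower. An unadjusted p of at most 0.05 was reached by 0 higher and 5 lower. Of the 23 symbols listed for this class 13 also stand in other classes. *SNAI1*, the repressor of epithelial cadherin, fell from 1537, 2866 and 3197 to 493, 519.8 and 255 (log2 fold change -2.58 ± 0.40, adjusted p = 0.0226). *ZEB1* (2272, 2506 and 2054 in RPE and 2057, 1513 and 1073 in t-rRPE) and *VIM*, vimentin (101307, 125908 and 119421 in RPE and 137153, 110595 and 130785 in t-rRPE), overlapped between the groups. *INKA2*, an inhibitor of the kinase PAK4, fell from 205, 306 and 184 to 0, 4.67 and 0 (log2 fold change -6.99 ± 1.35, adjusted p = 0.0458). It was the only limma call among 34 actin regulators, of which edgeR called 0 and DESeq2 0 higher and 1 lower. Of the 34, 2 higher and 8 lower had an unadjusted p of at most 0.05. *TPM1* (15383, 13543 and 13954 in RPE and 6036, 10437 and 8297 in t-rRPE, log2 fold change -0.83 ± 0.20, adjusted p = 0.105) and *MYH9* (5402, 8589 and 10146 in RPE and 4717, 3378 and 4405 in t-rRPE, log2 fold change -0.91 ± 0.24, adjusted p = 0.146), tropomyosin and the non-muscle myosin heavy chain, lay lower without passing. *SNAI1* is also a gene of mesenchyme, whose marker sums were lower, and the part of that tissue was not tested.

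The list of axon injury and regrowth genes held 2 calls among 26, both higher, and 8 with an unadjusted p of at most 0.05, all higher (median 0.38). It was written with earlier results of these data known and includes genes the study discusses for t-rRPE, among them both called ones. Its counts therefore add no support for an axon injury response. By edgeR 1 of the 26 was called higher and 0 lower, and by DESeq2 7 higher and 0 lower. *NMU*, the peptide neuromedin U, was at 0 in RPE and measured 117, 90.5 and 394 in t-rRPE libraries, at least 69.5-fold higher. *KIAA0319*, a membrane protein that restrains axon growth in mice, rose from 12.5, 0 and 3.07 to 184, 140.0 and 441 (log2 fold change 5.89 ± 1.15, adjusted p = 0.0488). *NREP*, a Z-linked regeneration protein, measured 12097, 10197 and 10711 in RPE and 19389, 20620.0 and 32839 in t-rRPE (log2 fold change 1.10 ± 0.23, adjusted p = 0.0644), and *NTRK3*, a neurotrophin receptor, 24, 97 and 309.7 in RPE and 1499, 564 and 1590.1 in t-rRPE (log2 fold change 3.60 ± 0.88, adjusted p = 0.116). Neither passed, and the groups did not overlap. Among 52 axon guidance genes 0 were called by limma, edgeR called 0 and DESeq2 0 higher and 1 lower, and 2 higher and 3 lower had an unadjusted p of at most 0.05. *SEMA3G*, a semaphorin of endothelium, measured 963, 2319.8 and 2839 in RPE and 282, 353 and 92.5 in t-rRPE (log2 fold change -3.14 ± 0.63, adjusted p = 0.054).

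Limma called 2 of 44 ion channels and 1 of 20 secreted angiogenic factors, all 3 higher. By edgeR 1 channel and 1 angiogenic factor were called, each higher. Among channels 8 higher and 6 lower had an unadjusted p of at most 0.05 (median 0.04) and DESeq2 called 6 higher and 0 lower. Among angiogenic factors 4 higher and 4 lower had an unadjusted p of at most 0.05 (median -0.06) and DESeq2 called 2 higher and 1 lower. *TRPM3*, a cation channel of the RPE, rose from 2617, 2866 and 2301 to 6440.0, 9155 and 9508 (log2 fold change 1.67 ± 0.23, adjusted p = 0.0123). It is Z-linked, and t-rRPE replicate 1, which holds *HINTW* like the RPE libraries, was the lowest of the 3 but above all of RPE. *KCNG4*, a modifying subunit of potassium channels, rose from 216, 12.5 and 23.1 to 2001, 817 and 1556 (log2 fold change 5.05 ± 0.94, adjusted p = 0.0413). *KCNJ13*, the potassium channel of the RPE apical membrane, measured 1018, 1571 and 1156 in RPE and 5333, 1706 and 5022 in t-rRPE (log2 fold change 1.54 ± 0.43, adjusted p = 0.179) and was lowest in t-rRPE replicate 2. *CLIC4*, a chloride intracellular channel protein, was lower without passing (3054, 3154 and 2531 in RPE and 1921, 2018 and 1631 in t-rRPE, log2 fold change -0.65 ± 0.19, adjusted p = 0.207), with groups that did not overlap. *ANGPTL4*, a secreted inhibitor of lipoprotein lipase, rose from 2366, 1941 and 2134 to 5799, 5515 and 6927 (log2 fold change 1.50 ± 0.20, adjusted p = 0.0122). *PDGFA*, a ligand of PDGF receptors, was lower without passing and without overlap (1103, 696 and 406 in RPE and 43.4, 357 and 66.5 in t-rRPE, log2 fold change -2.73 ± 0.87, adjusted p = 0.24).

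**Figure D4:**
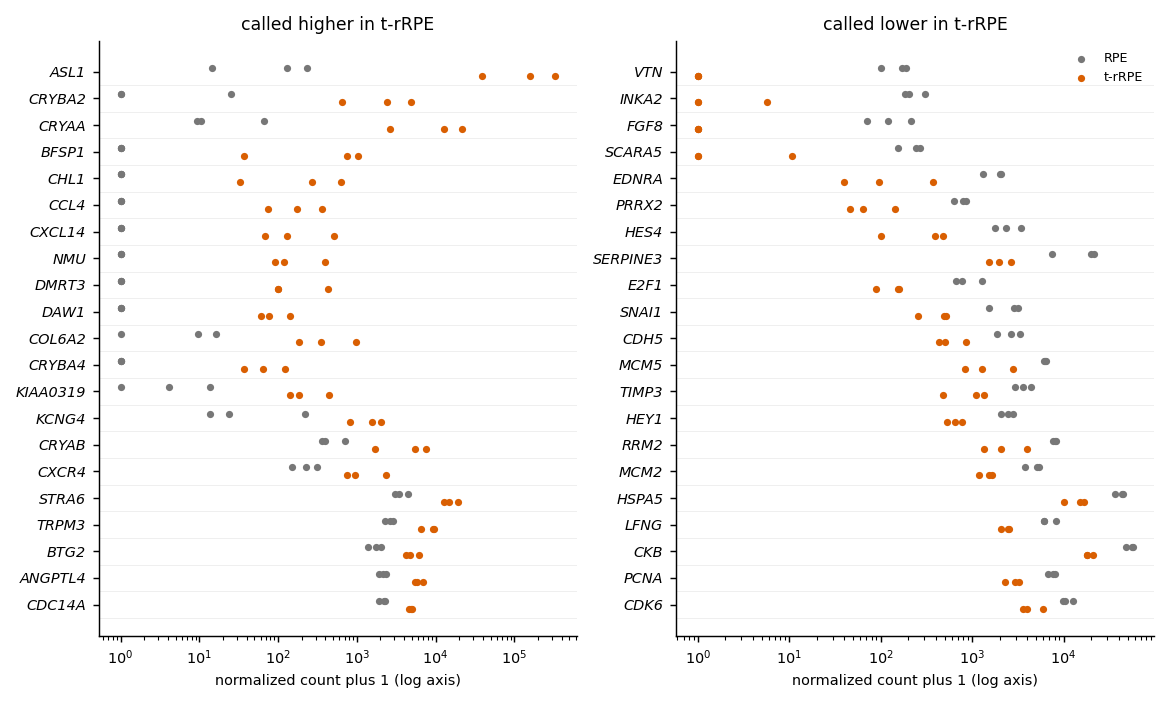
Normalized count plus 1 on a log axis of 21 genes called higher (left) and 21 called lower (right) in t-rRPE, with 1 point per library (RPE grey, t-rRPE orange). In the left panel all orange points lie to the right of the grey ones and in the right panel to the left of them, and points at 1 are libraries at 0, as in t-rRPE for *FGF8* and *VTN*.

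Outside these classes, 46 called genes with a symbol remained. Among the largest rises were genes at 0 in every RPE library. *CHL1*, an adhesion molecule of the L1 family, was at 0 in RPE and measured 31.5, 637 and 271 in t-rRPE libraries, at least 109-fold higher. *DMRT3*, a Z-linked transcription factor, was at 0 in RPE and measured 428, 99.9 and 97.8, at least 72.3-fold higher and highest in t-rRPE replicate 1, the injured library with *HINTW*. *DAW1*, an assembly factor of ciliary dynein, was at 0 in RPE and measured 139, 75.6 and 60, at least 31.7-fold higher.

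Several of the large falls outside the classes ended at or near 0. *DUOX2*, an oxidase that makes hydrogen peroxide, fell from 57.7, 154 and 35.3 to 0 (at least 21.1-fold lower), and *MYO18B*, a myosin of muscle, from 154, 50.1 and 62.2 to 0 (at least 22.7-fold lower). *SCARA5*, a ferritin receptor, fell from 267, 243 and 155 to 9.77, 0 and 0 (log2 fold change -6.62 ± 1.30, adjusted p = 0.0494). *EDNRA*, the endothelin receptor of cranial mesenchyme, fell from 1329, 2002 and 2051 to 39.1, 376 and 95.1 (log2 fold change -3.96 ± 0.68, adjusted p = 0.033), and *AFAP1L1*, an actin-binding adaptor, from 848, 939 and 1322 to 126, 328 and 151 (log2 fold change -2.46 ± 0.44, adjusted p = 0.0355).

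Abundant genes changed by smaller factors. *SERPINE3*, a serine protease inhibitor, fell from 7376, 21363 and 20074 to 2656, 1942 and 1531 (log2 fold change -2.88 ± 0.53, adjusted p = 0.0396), and its RPE replicate 1 lay below the other 2. *CKB*, the brain-type creatine kinase, fell from 48497, 56529 and 56852 to 17924, 21028 and 17849.8 (log2 fold change -1.51 ± 0.20, adjusted p = 0.0112), with 3 closely spaced injured libraries. *HIST1H103*, a linker histone, fell from 12922, 10417 and 11082 to 3452, 4036 and 3475 (log2 fold change -1.65 ± 0.23, adjusted p = 0.0122). Histone transcripts of the replication-dependent kind carry little poly(A), and the libraries were primed with oligo(dT). *PODXL*, a sialomucin of apical membranes and vessels, fell from 5460.3, 5909 and 6418 to 2898, 2272 and 3103 (log2 fold change -1.11 ± 0.20, adjusted p = 0.0396). *MAN2B2*, a lysosomal mannosidase, rose from 4227, 2840.0 and 3039.9 to 10039, 7639.5 and 7822 (log2 fold change 1.35 ± 0.22, adjusted p = 0.0263), and *YPEL5* rose from 6561, 5109 and 4698 to 15701, 11143 and 10272 (log2 fold change 1.17 ± 0.21, adjusted p = 0.0348). *HMOX1*, haem oxygenase, named after its values were seen, fell from 3355, 4130.5 and 4325 to 643, 1135 and 573 (log2 fold change -2.39 ± 0.31, adjusted p = 0.0112).

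The remaining classes added no called gene that is not described above. Of 35 cadherins and integrins limma called 1, *CDH5*, edgeR called 1 lower and 0 higher, and DESeq2 2 lower and 0 higher. Limma called 0 of 26 junction genes, 0 of 40 solute carriers and 0 of 10 markers of melanocytes and neural crest. In the junction and melanocyte classes edgeR and DESeq2 also called 0, and among solute carriers edgeR called 0 and DESeq2 3 higher and 2 lower. An unadjusted p of at most 0.05 was reached by 2 higher and 2 lower of the junction genes, 5 higher and 5 lower of the solute carriers and 0 higher and 2 lower of the melanocyte and crest markers. The medians of these classes were -0.36 for junctions, 0.01 for solute carriers and -0.42 for melanocyte and crest markers.

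Genes that every cell uses gave no call. Limma called 0 of 61 cytosolic ribosomal proteins, 0 of 48 respiratory chain subunits and 0 of 13 housekeeping genes, with medians of -0.11, -0.06 and 0.01. In each of these 3 classes edgeR and DESeq2 also called 0. An unadjusted p of at most 0.05 was reached by 3 higher and 4 lower of the ribosomal, 2 higher and 0 lower of the respiratory and 1 higher and 1 lower of the housekeeping genes. Of the 61 ribosomal genes 8 had a positive and 53 a negative fold change, the lowest at -0.32. Groups did not overlap in 0 of the 61 upward and 19 downward, against 7.32% and 7.83% of all genes tested. *ACTB* measured 248303, 255019 and 249973 in RPE and 256746, 276330.1 and 241436 in t-rRPE. The Z-linked *RPL17* (30693, 24128 and 24666 in RPE and 26563, 49316 and 42308 in t-rRPE) and *COX7C* (7684, 7652 and 7409 in RPE and 7092, 15203 and 13951 in t-rRPE) were high in t-rRPE replicates 2 and 3, which among these 6 libraries are those without *HINTW*.

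The t-rRPE libraries are also the comparator of the FGF2 bead, so the values of both injured groups can be read side by side although the 111 genes were chosen on libraries that both contrasts share. In the study rRPE was captured only close to the bead, while t-rRPE had no bead. No rRPE library held *HINTW*, while t-rRPE replicate 1 did. FGF2, the bead, the captured region and in part sex cannot be told apart in these values. Between rRPE and t-rRPE limma called 9 genes (0.0544% of those tested). Of the 111 genes, 1 had an adjusted p of at most 0.05 in that contrast, *RGS10*, a regulator of G protein signalling, which is named after its values were seen. It measured 524, 1176 and 959.8 in RPE and 227, 286 and 239.8 in t-rRPE, whereas rRPE held 2164, 1905 and 2299.8 (t-rRPE against RPE log2 fold change -1.75 ± 0.34, adjusted p = 0.0494; rRPE against t-rRPE log2 fold change 3.08, adjusted p = 0.0133). The rRPE libraries lay above both other groups.

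Other members differed in level without passing between the injured groups. *CXCL14* measured 3654, 1838 and 4502 in rRPE, above all t-rRPE libraries, with a log2 fold change of 4.23 and an adjusted p of 0.178. *CXCR4* measured 4402, 4137 and 3353 in rRPE (1.72, adjusted p = 0.217). *VTN*, at 0 in t-rRPE, measured 101, 219 and 35.9 in rRPE (6.55, adjusted p = 0.0987). For *FGF8*, *DUOX2* and *MYO18B* all 6 injured libraries were at 0. *STRA6* measured 10603, 11291 and 14389.9 in rRPE, a range that overlapped that of t-rRPE and reached lower. *BTG2* measured 9157, 6519.7 and 5416 in rRPE, a range that overlapped that of t-rRPE and reached higher. *PCNA* measured 4491, 5865 and 2825 in rRPE and *MCM2* 3036, 3701 and 1913, between or across the levels of the other groups, and neither contrast with t-rRPE passed (adjusted p = 0.523 and 0.275).

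**Figure D5:**
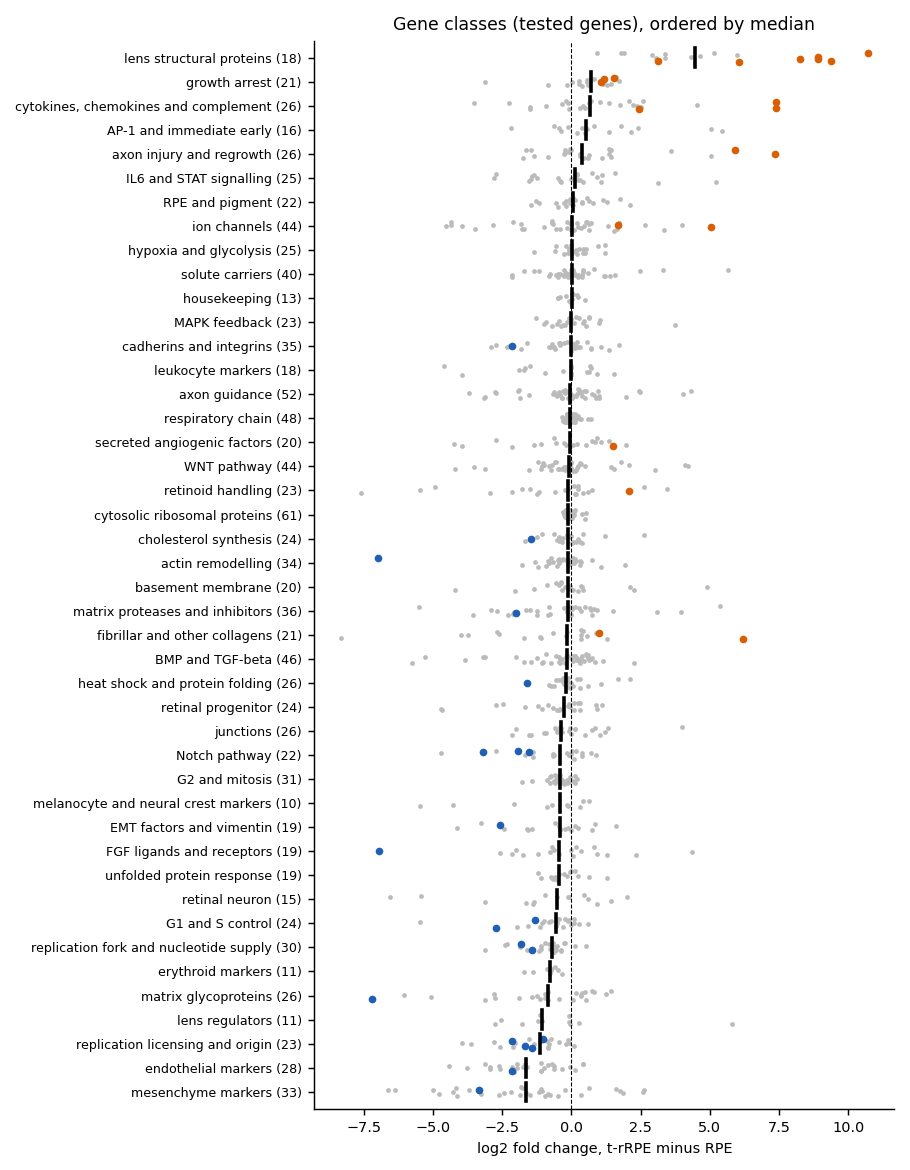
Log2 fold change (t-rRPE minus RPE) of every tested member of 44 gene classes, with 1 row per class, grey points for genes not called, orange or blue points for genes called higher or lower, and a black bar at the class median. The dashed line marks 0, the median over all genes, and the lens class lies farthest to the right.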

How the data were processed

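Laser-captured RPE of 9 chick libraries was sequenced from oligo(dT)-primed, amplified cDNA. The authors trimmed reads (Trim Galore 0.6.1, cutadapt 1.18), aligned them to GRCg6a with STAR 2.7.3, counted genes with StringTie 2.0.4 and deposited a table of 16635 genes whose signal is the DESeq2 1.22.2 normalized count, not a raw count. In every library a share of 1 of the values, that is all of them, were whole multiples of 1 read to within 0.01 of a read (1 read was worth 0.768 to 1.30 normalized counts), so reads were recovered for count models. Counting did not use strand, so antisense, overlapping or near-identical genes may share reads.

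limma 3.58.1 (R 4.3.3) with a mean-variance trend was fitted to log2(normalized count + 1) of all 9 libraries with group means. The 100 genes summing to under 20 were left out. This differs from the count model of the study because the values are normalized. The offset lessens changes of genes that are low throughout. Where a group mixes libraries at 0 with others, the difference of mean logs can exceed the ratio of group means. For *EGR1* these were 43.3-fold and 3.88-fold. Fold bounds replace a group with at most 3 reads in every library by the value of 3 reads, taken from the library of that group where it is largest. Whole reads were tested with edgeR 4.0.16 (23 genes higher, 18 lower) and DESeq2 1.42.0 (289 higher, 218 lower). The limma, edgeR and DESeq2 fits were each tested on simulated data. Other alternatives were offsets of 0.5 and 5, other filters and scalings, no trend, 6 libraries, a replicate block and leaving out each library. Depth is the range of reads given in the report, and counting error is only part of the spread between libraries. Replicates are described as separate embryos. The p values set each difference of group means against a spread estimated from all 9 libraries, rRPE included, and moderated across genes.

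Genes and the 44 class lists were chosen with earlier results of these data known. Named were the 15 largest rises and falls, the 10 most abundant called genes in each direction, per class the called members, 3 uncalled by p and 2 by level, and genes the study discusses for t-rRPE. Not all genes under the rule are written out, and a few are not reported here. Symbols came from the table and were present for 11593 genes, 18 symbols being carried by more than 1 gene. Chromosome names came from the GRCg7b annotation and served only to place genes on Z or W. Promoter sequences were not analysed here. Figures were drawn with matplotlib 3.10.9.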

Additional observations from a re-analysis of the deposited data

How the results depend on the processing

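Counts of DEGs depended on the fit. The counts higher and lower were 59 and 52 as reported, 142 and 120 with the normal prior of DESeq2, 289 and 218 with unshrunken DESeq2, 23 and 18 with edgeR, 34 and 39 without the trend, 0 and 0 with 6 libraries, 151 and 135 with *HINTW* as a term, and 0 to 56 and 0 to 53 with a library left out. Similar counts did not always mean the same genes. Without t-rRPE replicate 1, 56 and 53 were called, of which 25 and 18 were among the reported genes. Of the 34 and 39 called without the trend, 24 and 19 were. Offsets, filters, rescaling, quantile normalization and leaving out Z and W genes kept the counts between 53 and 60 higher and between 42 and 58 lower. In those fits 52 to 59 higher and 42 to 52 lower were among the reported genes. A replicate block gave 41 and 23, of which 36 and 21 were among the reported genes. Deviations of same-numbered RPE and t-rRPE libraries correlated at 0.019, -0.031 and 0.028, and not every library correlated best with its own number. These correlations show no pairing by number, but being taken over all genes they cannot exclude one that touches some genes. The cause of the shifts in the counts was not tested. The lens median (4.48) was 0.53 with the DESeq2 prior, 5.58 unshrunken, 3.53 with the *HINTW* term, 3.12 with an offset of 5 and 3.95 to 5.11 with a library left out. The licensing median (-1.12) was -0.75 with the prior, -1.45 with the term and -1.25 to -0.95 leaving out libraries. The endothelial median (-1.64) was -0.60 with the prior, -1.26 unshrunken, -1.31 with the term, -1.27 in edgeR, -1.34 with an offset of 5 and -2.05 to -1.25 leaving out libraries. The mesenchyme median (-1.66) was -0.18 with the prior, -1.03 unshrunken, -1.21 in edgeR, -1.08 with an offset of 5, -2.91 with the term and -2.12 to -1.03 leaving out libraries. Among genes not called, whose groups were free to overlap, the sign changed with the *HINTW* term for *BFSP2* (-0.59), *COX7C* (-0.10), *LAMB1* (0.52), *PECAM1* (0.37), *PMEL* (0.15) and *HINTW* itself (0.39). With edgeR it changed for *LAMB1* (0.023) and *PECAM1* (0.053), with DESeq2 for *LAMB1* (0.026 with the prior and 0.029 unshrunken), *PECAM1* (0.053 and 0.063) and *PAX6* (0.00 and 0.00), and with quantile normalization for *LAMB1* (0.020). With a library left out, fold changes crossed or reached 0 for *ACTB* (-0.012 to 0.085), *LAMB1* (-0.289 to 0.254), *PAX6* (-0.40 to 0.284), *PDGFRB* (0 to 2.80), *PECAM1* (-0.262 to 0.387), *PMEL* (-0.177 to 0.035), *RLBP1* (-0.086 to 0.595), *GAP43* (-2.47 to 0), *ISL1* (-2.03 to 0), *STMN2* (0 to 2.15), *C1QA* (-2.22 to 0), *C1QB* (-2.58 to 0) and *C1QC* (0 to 2.29). A library at 0 allows up to 3 reads, or 2.31 to 3.91 normalized counts in the 6 libraries, so presence below that was not detectable.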
